A study of Mus musculus with 35 samples.

Results

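The genes described here are 46 interferon-response and antigen presentation genes, measured by RNA sequencing in the hypothalamus of 35 male mice of strain B6/J. They were chosen by name, with earlier results of these data known. All 46 were found among the 49568 gene names of the count tables. Of these, 21 encode type I interferon-induced antiviral effectors, 3 RNA sensors, 4 transcription factors, 11 interferon-inducible GTPases, 6 proteins of MHC class I antigen presentation and 1 a chemokine. A filter on low counts left 44 of them among the 18063 genes tested, and Oasl1 and Cxcl10 fell below it. Every mouse was sampled at Zeitgeber time 16, counted in hours from lights-on. Control mice were either fed ad libitum (n = 10) or fasted from lights-on, for 16 h (n = 10). PER2-S662D mice were treated in the same 2 ways (n = 5 each), and mice labelled Per2 ko were all fasted (n = 5). PER2 is a repressor of the circadian clock, and in S662D a phosphorylated serine of it is replaced with aspartate. How the alleles were made, whether 1 or both copies were changed, and the age of the mice are not given in the sources used here. Each library is taken as 1 mouse from its label, and p-values measure the spread between these libraries.

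Interferons are secreted proteins, and cells release those of type I when they sense foreign nucleic acid. Type I interferons bind a receptor that acts through the kinases JAK1 and TYK2 to form a complex, with STAT2 and IRF9 among its subunits, that binds interferon-stimulated response elements, while interferon-gamma acts at gamma-activated sites. The induced genes include antiviral effectors, GTPases that attack intracellular vacuoles, and the machinery that loads peptides onto MHC class I molecules. In the brain, microglia and endothelial cells hold much of this response, and a low level is present without infection.

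The response element can be read in the promoters of several of these genes. RefSeq promoters (build GRCm38.p6, 250 bases before to 50 after a start site) were found for 35 of the 46 genes. The response element letters, GAAA, any 2 bases and GAAA again, searched on both strands and with overlapping matches allowed, occurred in the promoters of 20 of the 35 genes (57.1%), against 3.99% of 27025 genes with a promoter of the same length. The letters TTCNNNGAA of a gamma-activated site, which read the same on both strands, occurred in 11 of the 35 (31.4%), against 9.55% of all genes, and 7 genes held both. A match describes the letters and is not evidence of binding. The sequences below were chosen because each carries the response element letters, in capitals, next to a gene described in the results: the GTPase genes Gbp2 and Igtp, the effectors Isg15 and Bst2, and B2m. They run 5′ to 3′ on the gene's strand and end before the gene as counted begins, except that the Gbp2 stretch is limited to 30 bases around its match, which lies inside the gene as counted.
Gbp2 (chr3:142620594-142620623, + strand): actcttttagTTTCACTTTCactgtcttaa
Igtp (chr11:58199406-58199555, + strand): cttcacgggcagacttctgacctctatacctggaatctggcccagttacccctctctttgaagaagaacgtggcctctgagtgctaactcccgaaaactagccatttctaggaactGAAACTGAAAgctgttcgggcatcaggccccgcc
Isg15 (chr4:156200819-156200968, - strand): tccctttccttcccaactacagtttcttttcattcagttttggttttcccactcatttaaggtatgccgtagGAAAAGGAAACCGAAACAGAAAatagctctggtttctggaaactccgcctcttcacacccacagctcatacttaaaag
Bst2 (chr8:71537473-71537622, - strand): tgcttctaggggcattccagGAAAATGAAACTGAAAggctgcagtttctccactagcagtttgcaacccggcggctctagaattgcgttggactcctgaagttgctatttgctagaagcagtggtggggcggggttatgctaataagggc
B2m (chr2:122147537-122147685, + strand): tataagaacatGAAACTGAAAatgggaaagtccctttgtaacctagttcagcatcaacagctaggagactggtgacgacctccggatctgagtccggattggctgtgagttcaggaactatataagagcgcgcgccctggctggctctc
The capitals of Gbp2 are the element on the opposite strand, those of Isg15 are 3 overlapping matches and those of Bst2 are 2. The match began 34 bases before the start site in Igtp and 139 bases before it in B2m. In the promoters of Oasl2 and Ifi44, neither set of letters was found. Gbp4, Gbp9, Oas2 and Parp14 had no entry in the promoter table.

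Depth was 17959586 to 37027342 assigned counts per library, and the deepest libraries were S662D ones. The hypothalamic marker genes Agrp, Hcrt, Pmch, Avp, Oxt, Sim1, Nkx2-1 and Pomc were counted in every library. Per2 was the check of the genotype labels. It ranged from 25.9 to 32.6 CPM (a count scaled to the library's total) in fed controls (median 27.9) and from 26.1 to 33.1 CPM in fasted controls (median 29.0), and stood at 33.4, 28.2, 29.5, 29.4 and 30.9 CPM in the 5 libraries labelled Per2 knockout. These libraries overlapped the fasted controls (log2 fold change 0.06 ± 0.07 SE, adjusted p = 0.935), so loss of Per2 transcript was not seen, and they are called labelled knockouts throughout. The counts are summed over the whole gene and the labels do not say what was deleted, so an allele that leaves most of the transcript would not show here. In S662D mice Per2 was at 16.9 to 21.4 CPM when fed and at 16.4 to 22.7 CPM when fasted, below every control library. The library names in the count tables fall into separate number ranges for control replicates 1 to 5, control replicates 6 to 10, the labelled knockouts and the S662D mice, and S662D replicates 2, 3 and 4 carry an additional final digit. Library range and genotype therefore cannot be told apart for S662D and the labelled knockout. Values within control ranges are given beside the main results of the members.

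The MHC class I chains were among the most abundant members. Levels are compared between genes as CPM per kilobase of exon, averaged over the 35 libraries. B2m, the light chain of MHC class I, stood at 62.6, H2-D1, a heavy chain, ranked next, and the other heavy chain gene, H2-K1, stood at 12.2 on the same scale. Of the effectors, Ifi27 had the highest level at 14.5. Ifit3 (7.44) and Ifit2 (4.02), of a family that binds viral RNA, and Ifitm3 (7.12), which blocks viral entry, came next. Stat2, a subunit of the response complex, led the transcription factors at 5.08. The RNA helicase Ddx58 (RIG-I) stood at 0.699 and the GTPase Igtp at 2.05. The lower end held Gbp4 (0.168), Oas2 (0.124), the chemokine Cxcl10 (0.0824), Ifi44 (0.0811) and Oasl1 (0.0685). Counts of Ifit3, which shares 51.2% of its 50-base words with Ifit3b, and of Gbp6, which shares 70.7% with neighbouring genes, are uncertain because reads with several alignments were counted at each. Another 8 members were uncertain by overlap or shared words (Oas1a, Ifi35, Rtp4, Ifitm3, Gbp7, Igtp, H2-D1 and Psmb8). The SD between libraries within a group had a median of 0.29 on the log2 scale over the 44 members, against 0.15 over all genes tested.

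**Figure D1:**
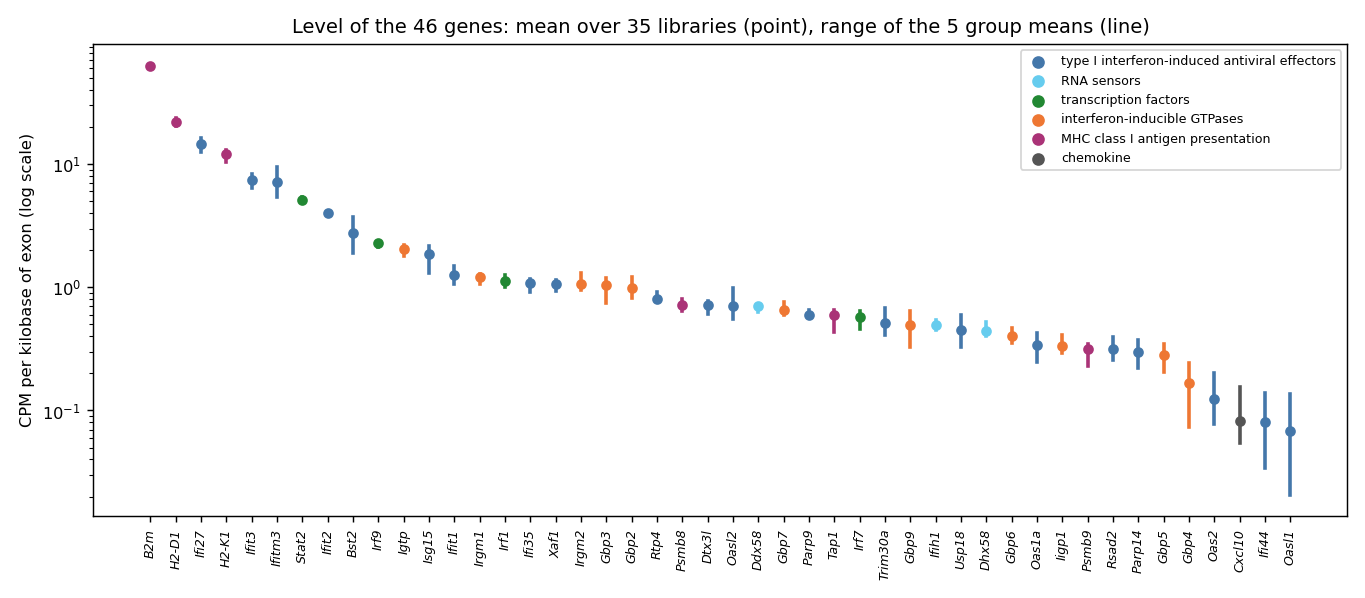
Mean level of each of the 46 genes over 35 libraries (points), in CPM per kilobase of exon on a log axis, with the range of the 5 group means (lines), ordered by level and coloured by role. B2m is highest at 62.6 and Oasl1 lowest at 0.0685.

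Fasting lowered 3 of the 7 guanylate-binding protein genes in control mice. GTPases of this family coat and break vacuoles that hold intracellular microbes. All 7 genes had log2 fold changes below 0, although that of Gbp6 was only -0.02. Gbp9, Gbp4 and Gbp2 were called lower (adjusted p below 0.05 in edgeR's quasi-likelihood test, Benjamini-Hochberg over 18063 genes), and no member was called higher. Of all genes tested, 3.88% were called in this comparison and 1.68% were called lower. No member's groups were free of overlap, as those of 0.515% of all genes were.

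Gbp4 (mm10, chr5:105115767-105139586) was at 0.954, 1.84 and 2.23 CPM (lowest, median and highest) in fed controls and at 0.485, 1.04 and 1.70 CPM in fasted controls. The groups overlapped, although the fasted median lay below 9 of the 10 fed libraries. Gbp4 fell by 0.72 ± 0.19 SE on the log2 scale (adjusted p = 0.0146), a ratio of 0.608. The span of Gbp9 (chr5:105077630-105139539) overlaps that of Gbp4 on the same strand. Gbp9 went from 2.17, 3.24 and 4.47 CPM in fed controls to 1.56, 1.85 and 3.12 CPM in fasted controls. Gbp9 fell by 0.69 ± 0.16 SE on the log2 scale (adjusted p = 0.00427), and 7 of 10 fasted libraries sat below the fed range. Gbp4 and Gbp9 share 7.78% and 8.05% of their 50-base words with other genes, each other included, so part of their counts may be common to both. Of their exon bases, 0.814% and 1.16% overlap exons of other genes, each other included. Gbp2 (chr3:142620602-142638008), on another chromosome, went from 1.75, 3.11 and 3.84 CPM to 1.44, 2.01 and 2.69 CPM. Gbp2 fell by 0.51 ± 0.13 SE on this scale (adjusted p = 0.0158), again with overlapping groups.

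**Figure D2:**
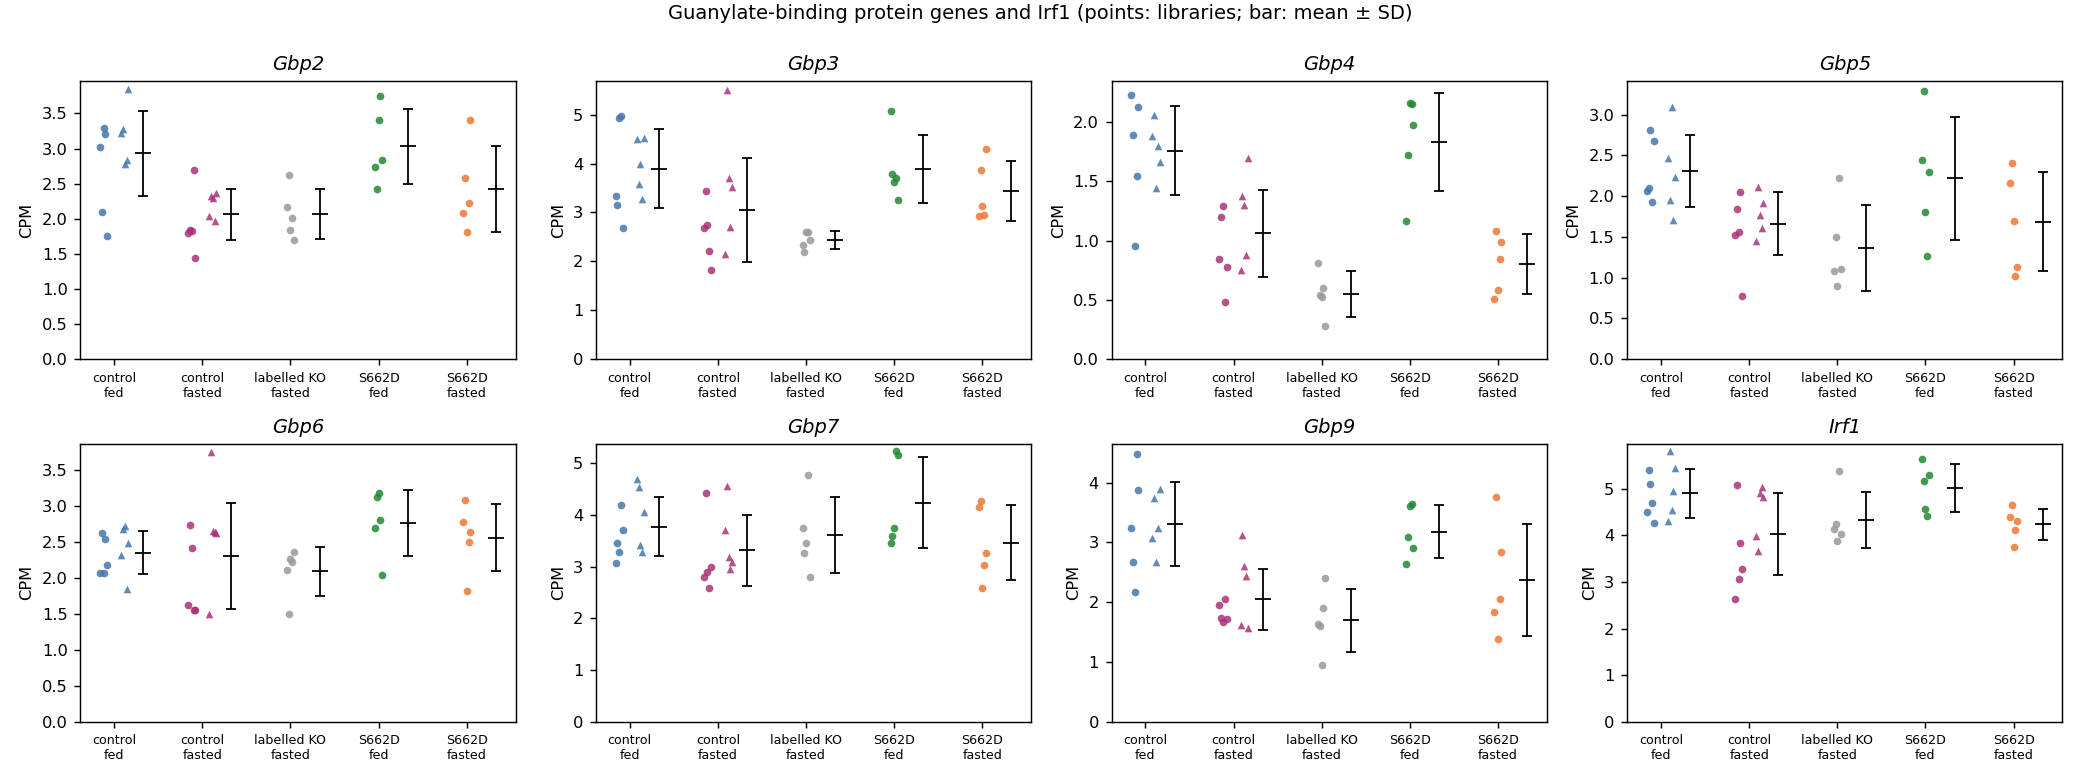
CPM of the 7 guanylate-binding protein genes and Irf1 in each library by group, with the mean and SD beside the points; triangles are control replicates 6 to 10. Gbp4 is at 0.954 to 2.23 CPM in fed controls and 0.485 to 1.70 CPM in fasted controls.

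Both control library ranges gave lower values for the 3 called genes. In control replicates 1 to 5 alone the log2 fold changes were -0.93 for Gbp4 (adjusted p = 0.0375), -0.85 for Gbp9 (adjusted p = 0.0204) and -0.48 for Gbp2 (adjusted p = 0.147). In replicates 6 to 10 alone they were -0.54 for Gbp4 (adjusted p = 0.235), -0.55 for Gbp9 (adjusted p = 0.193) and -0.53 for Gbp2 (adjusted p = 0.0917), so none was called there. In that range 6 of the 7 guanylate-binding protein genes were below 0.

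No member of another role was called in fasted controls. Gbp5 (-0.46), Gbp3 (-0.35) and the transcription factor gene Irf1 (-0.28), which activates MHC and GTPase genes, had log2 fold changes with an unadjusted p below 0.05 but were not called (adjusted p = 0.158, 0.211 and 0.130). In all, 6 members had an unadjusted p below 0.05, all of them lower, against 13.3% of all genes in either direction and 6.36% lower. Irf1 was at 4.26, 4.82 and 5.81 CPM in fed controls and 2.63, 3.90 and 5.08 CPM in fasted controls. Stat2 (log2 fold change -0.09 ± 0.05 SE, adjusted p = 0.389), Igtp (-0.17 ± 0.11 SE, adjusted p = 0.550), Psmb8 of the immunoproteasome (-0.16 ± 0.16 SE, adjusted p = 0.772), Ifitm3 (-0.22 ± 0.16 SE, adjusted p = 0.629) and the RNA sensor gene Ifih1 (0.13 ± 0.10 SE, adjusted p = 0.682) were not called. B2m was at 50.1 to 60.2 CPM in fed controls and 46.5 to 60.1 CPM in fasted controls, with a log2 difference between -0.11 and 0.07 by its 95% interval. Over the 44 members, 37 were below 0 with a median log2 fold change of -0.09, whereas 48.9% of all genes were below 0 and their median was 0.00. With control replicates 1 to 5 alone 42 of 44 were below 0 (median -0.25), and with replicates 6 to 10 alone 22 of 44 were (median -0.002), so this count held in 1 library range and not in the other.

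Fasted controls differed more among themselves than fed controls did. The mean log2 deviation of the 44 members from their group means ran from -0.09 to 0.14 in fed controls and from -0.29 to 0.32 in fasted controls. Replicate 6 was highest (0.32) and held the highest value of 16 members, and replicate 5 was lowest (-0.29) and held the lowest value of 12 members. Replicates 1, 6, 7, 8 and 9 lay above the mean and replicates 2, 3, 4, 5 and 10 below it, so the split partly followed the library ranges. H2-D1, for example, was at 42.8 to 69.8 CPM in fasted controls and 48.8 to 61.0 CPM in fed controls.

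Markers of other cell types moved as well. The summed CPM of 6 endothelial markers was 190 to 218 in fed controls (mean 201) and 162 to 202 in fasted controls (mean 181), with 1 marker called lower. For 8 microglial markers it was 230.0 to 260 in fed controls (mean 246) and 196 to 263 in fasted controls (mean 227), with 2 markers called lower. No marker of either list was at 0. In control replicates 1 to 5 the endothelial sums were 190 to 210 CPM fed and 162 to 176 CPM fasted. In replicates 6 to 10 they were 194 to 218 and 171 to 202 CPM. The microglial sums were 230.0 to 251 and 196 to 224 CPM in replicates 1 to 5. In replicates 6 to 10 they were 244 to 260 and 229 to 263 CPM. Both sums thus overlapped between feeding states only in replicates 6 to 10. Among the other lists, 1 of 5 meningeal fibroblast, 1 of 4 oligodendrocyte and 1 of 8 hypothalamic markers were called higher, and of 5 astrocyte markers 1 was called higher and 1 lower. The part of these cells in the lower GTPase genes was not tested, and in bulk tissue fewer cells of a type and less RNA per cell cannot be told apart. The 4 B cell and 6 neutrophil and monocyte markers summed to at most 0.686 and 1.39 CPM in any library, and choroid plexus markers ranged from 18.2 to 1537 CPM between libraries. The 7 T and NK cell markers summed to at most 5.29 CPM. Sums of 5 red cell markers ranged from 327 to 1041 CPM between libraries, highest in fasted S662D replicate 1. The part of blood in the member values was not tested.

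**Figure D3:**
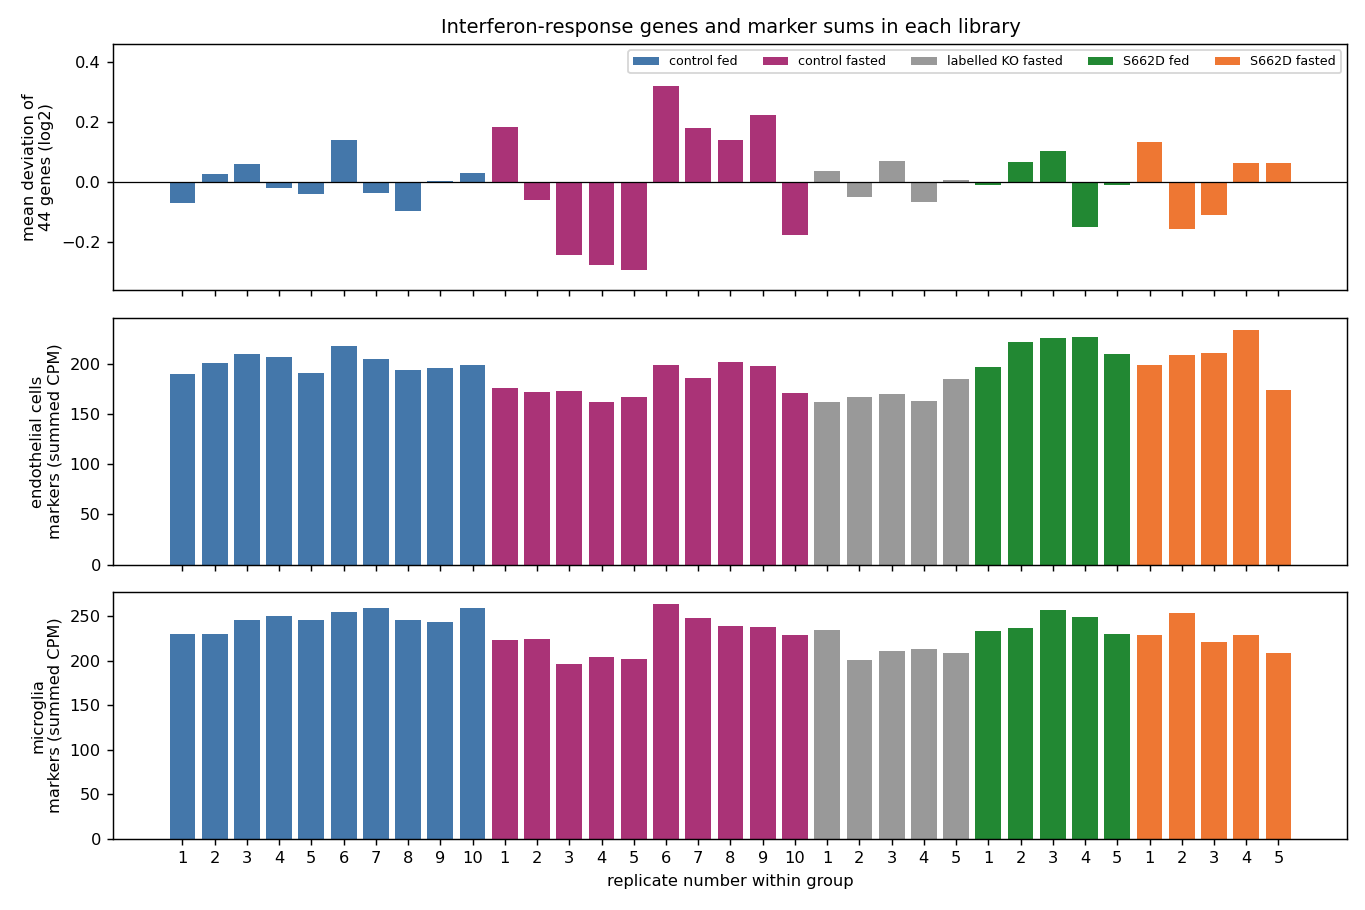
For each of the 35 libraries, the mean log2 deviation of 44 members from the group mean (top), and the summed CPM of 6 endothelial (middle) and 8 microglial markers (bottom). Fasted control replicates run from -0.29 (replicate 5) to 0.32 (replicate 6).

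In S662D mice, Gbp4 was called lower with fasting, and no other member was called. Gbp4 was at 1.72, 2.16, 2.15, 1.97 and 1.17 CPM in the fed libraries and at 1.08, 0.580, 0.847, 0.992 and 0.504 CPM in the fasted ones. The lowest fed library lay above the highest fasted library. Gbp4 fell by 1.22 ± 0.26 SE on the log2 scale (adjusted p = 0.00241), a ratio of 0.431. Of all genes, 2.64% were called in this comparison and 0.83% were called lower. It was also the only member whose groups did not overlap (3.3% of all genes, 1.34% with the fasted group lower) and the only one with an unadjusted p below 0.05 (14.3% of all genes, 6.69% lower).

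The other guanylate-binding protein genes were below 0 but not called in S662D mice. Gbp9 was at 3.09, 3.62, 3.64, 2.90 and 2.64 CPM when fed and 3.76, 1.39, 2.05, 2.83 and 1.84 CPM when fasted, where replicate 1 was above every fed library. The Gbp9 difference of -0.42 ± 0.21 SE on the log2 scale was not called (adjusted p = 0.355), nor was the -0.34 ± 0.18 SE of Gbp2 (adjusted p = 0.379). Of the 44 members, 31 were below 0 with a median of -0.08, against 9030 of all 18063 genes and a median of 0.00. That count was 35 (median -0.13) with S662D replicates 2, 3 and 4 alone and 22 (median -0.005) with replicates 1 and 5 alone. With S662D replicates 1 and 5 alone, Gbp4 had a log2 fold change of -0.87 and was not called. Fasted S662D mice had endothelial marker sums of 175 to 234 CPM against 197 to 227 CPM in fed ones, and microglial sums of 208 to 254 against 230 to 257 CPM. Of 8 microglial markers 1 was called lower. Called higher were 1 of 6 endothelial, 1 of 5 astrocyte and 1 of 4 oligodendrocyte markers. Oligodendrocyte sums did not overlap, at 8172 to 8796 CPM in fasted and 6773 to 8115 CPM in fed S662D mice. The part of these cells in the Gbp4 value was not tested.

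The response to fasting was not shown to differ between genotypes. In the interaction test with edgeR, 0 of 44 members and 0 of 18063 genes (0%) were called, and 0 members had an unadjusted p below 0.05, against 6.37% of all genes. DESeq2 called 0 members as well. For Gbp4 the difference between the responses was -0.50 ± 0.32 SE on the log2 scale (95% interval -1.12 to 0.13), and for Gbp9 it was 0.27 ± 0.26 SE (95% interval -0.25 to 0.79). Both intervals include 0.

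S662D mice had higher levels of 2 oligoadenylate synthetase family genes than controls in both feeding states. Oas2 makes the second messenger that activates the RNA-degrading enzyme RNase L, and Oasl2 is a related protein with ubiquitin-like domains. They were the 2 members called in each state, both higher. Of the same family, Oas1a, and Oas1b and Oas1c from outside the members, were tested and not called in either state. Of all genes, 4.69% were called in fed mice (3.12% higher) and 5.57% in fasted mice (3.35% higher).

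Oasl2 (chr5:114896936-114912234) was at 2.54, 3.62 and 4.93 CPM in fed controls and at 6.17, 5.07, 7.12, 6.09 and 6.91 CPM in fed S662D mice. The groups did not overlap, as was the case for 0.841% of all genes (0.41% with S662D higher) and for no other member. Oasl2 rose by 0.75 ± 0.15 SE on the log2 scale (adjusted p = 0.00275), a ratio of 1.68. Among fasted mice, controls were at 2.80, 3.71 and 6.67 CPM and S662D libraries at 5.59, 6.03, 5.08, 7.32 and 7.68 CPM. Here the fasted control replicate 7, at 6.67 CPM, overlapped the S662D mice, and the next control stood at 4.36 CPM. No member's groups were free of overlap in fasted mice, against 0.515% of all genes (0.304% higher). The fasted difference in Oasl2 was 0.69 ± 0.14 SE on the log2 scale (adjusted p = 0.0038). Control replicates 6 to 10 were nearer to S662D than replicates 1 to 5: fed controls averaged 4.30 ± 0.60 and 3.11 ± 0.49 CPM (SD, n = 5 each). Against replicates 6 to 10 alone the Oasl2 log2 fold changes were 0.54 in fed mice (adjusted p = 0.172) and 0.52 in fasted mice (adjusted p = 0.105), and against replicates 1 to 5 alone 1.00 and 0.88, both called. With S662D replicates 1 and 5 alone, Oasl2 was not called in either state (0.82, adjusted p = 0.257, and 0.76, adjusted p = 0.232).

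Oas2 (chr5:120730333-120749853) rested on few counts, 2 to 43 per library. It was at 0.164, 0.417 and 0.693 CPM in fed controls and at 0.506, 1.16, 1.33, 0.753 and 0.762 CPM in fed S662D mice. The groups overlapped only through S662D replicate 1 and the highest controls, and Oas2 was 1.14 ± 0.34 SE higher on the log2 scale (adjusted p = 0.0405). In fasted mice the controls were at 0.108, 0.314 and 0.794 CPM and the S662D mice at 0.949, 0.928, 0.357, 1.32 and 0.771 CPM. It was 1.31 ± 0.34 SE higher there (adjusted p = 0.018), with S662D replicates 3 and 5 inside the control range. The call in fed mice was lost in 10 of 26 alternatives. Among them were fits without 1 fed control (replicate 3, 4, 5 or 8) or 1 fed S662D library (replicate 2, 3 or 4). The call in fasted mice was lost in 5 of 26, among them leaving out fasted S662D replicate 2 or 4. Neither call was made against control replicates 6 to 10 alone or with S662D replicates 1 and 5 alone.

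**Figure D4:**
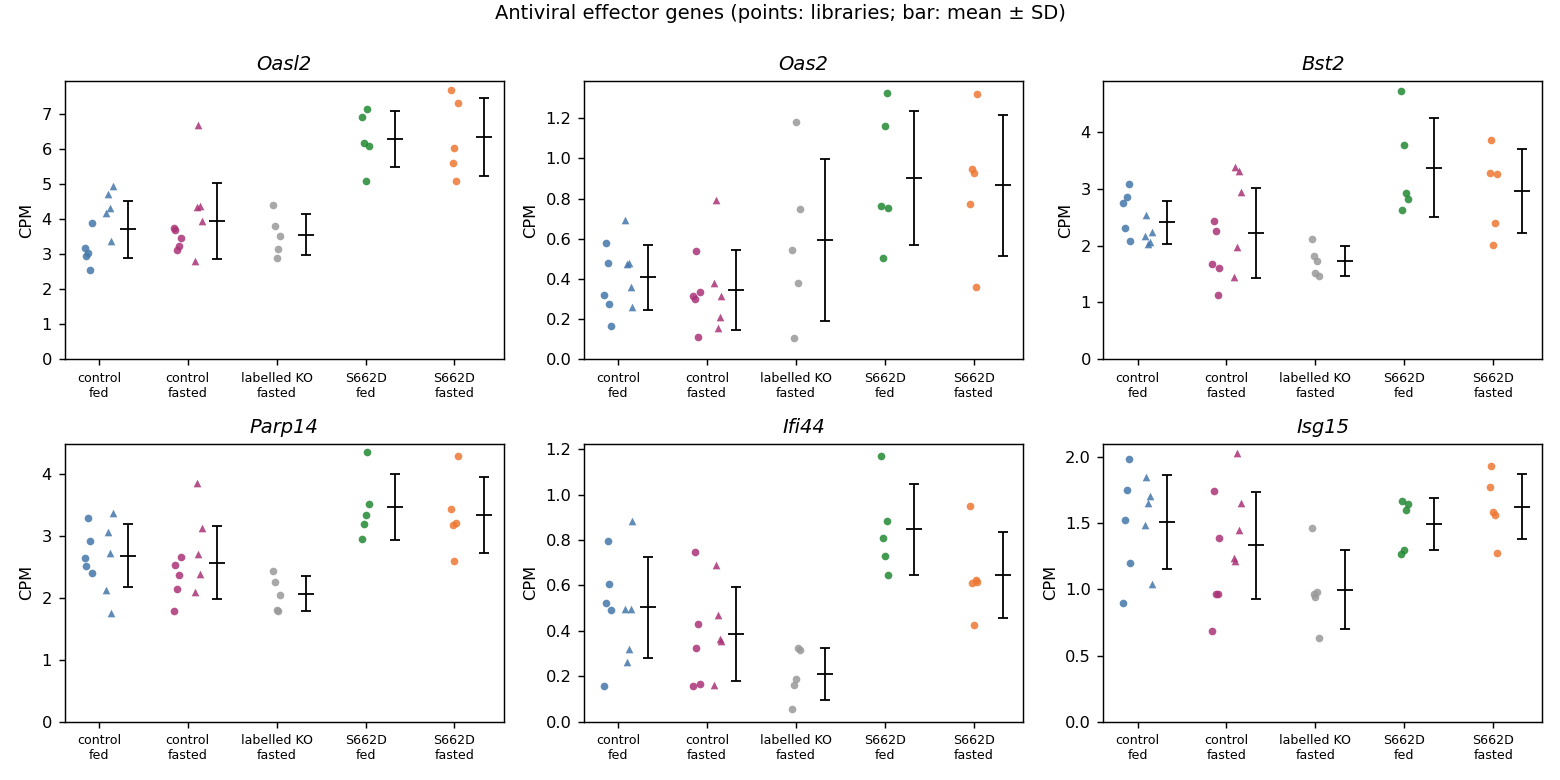
CPM of 6 effector genes in each library by group, with mean and SD beside the points; triangles are control replicates 6 to 10. Oasl2 is at 5.07 to 7.68 CPM in the S662D libraries and at 2.54 to 6.67 CPM in the control libraries.

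No other member was called between S662D mice and controls, and the shares of members with an unadjusted p below 0.05 lay near those of all genes. In fed mice 7 members had an unadjusted p below 0.05, all higher, against 21% of all genes in either direction and 11.6% higher: Oasl2, Oas2, the ubiquitin ligase Trim30a (0.46), the tethering protein Bst2 (0.49), the GTPase Irgm2 (0.36), the ADP-ribosyltransferase Parp14 (0.37) and Ifi44 (0.72, log2 fold changes). In fasted mice 6 members did, all higher, against 20.8% of all genes in either direction and 11.2% higher, with Bst2 (0.42), Parp14 (0.37), Ifi44 (0.74) and Rsad2 (0.46) beside Oasl2 and Oas2. Of the 44 members, 30 were above 0 in fed mice (median 0.08) and 35 in fasted mice (median 0.13), whereas 47.9% and 49.0% of all genes were. Against control replicates 6 to 10 alone, 27 members were above 0 in fed mice and 20 in fasted mice, fewer than were below 0 in the fasted state. The GTPase genes that fell with fasting were not called between genotypes in either state. In fed mice they differed by 0.05 ± 0.15 SE for Gbp2, 0.07 ± 0.21 SE for Gbp4 and -0.05 ± 0.18 SE for Gbp9 on the log2 scale, and in fasted mice by 0.22 ± 0.16 SE, -0.43 ± 0.24 SE and 0.22 ± 0.19 SE. Endothelial marker sums were 197 to 227 CPM in fed S662D mice (mean 216, controls 201) and 175 to 234 CPM in fasted ones (mean 206, controls 181), with 2 of 6 markers called higher and 1 lower in fed mice and 4 called higher in fasted mice. Of 4 oligodendrocyte markers 2 were called lower in fed S662D mice, and of 5 neuronal markers 1 was called higher in fasted ones. Endothelial sums of fasted controls were 162 to 176 CPM in replicates 1 to 5 and 171 to 202 CPM in replicates 6 to 10. The part of these cells in the higher Oasl2 and Oas2 was not tested.

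The 2 members below the filter were rare everywhere. Oasl1, a relative of Oasl2 that restrains Irf7 translation, was counted 0 to 7 times in control libraries, 0 to 2 times in labelled knockouts, 3 to 11 times in fed S662D libraries and 4 to 8 times in fasted S662D libraries. The chemokine gene Cxcl10 had 0 to 9 counts in control and labelled knockout libraries and 1 to 19 in S662D libraries, where fed replicate 3 held the 19. Both were untested.

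Labelled knockouts were not shown to differ from fasted controls in any member. With edgeR, 0 of 44 members were called in this comparison, in which 0.0277% of all genes were, and DESeq2 also called 0. An unadjusted p below 0.05 was reached by 6 members, 5 of them lower. Over all genes 6.07% reached it in either direction, and 591 of 18063 genes reached it and were lower. No member's groups were free of overlap, against 0.0941% of all genes. The lowest p belonged to Gbp4, at 0.536, 0.521, 0.597, 0.276 and 0.814 CPM in the labelled knockouts against 0.485, 1.04 and 1.70 CPM in the controls (-0.98 ± 0.27 SE on the log2 scale, adjusted p = 0.417). Tap1, which pumps peptides to MHC class I, was not called either (-0.49 ± 0.16 SE, adjusted p = 0.668), and the others were Irgm1 (-0.21), Ifi44 (-0.84), Isg15 (-0.44) and Oas2 (0.81). In all, 37 of 44 members were below 0 (median -0.17), against 51.7% of all genes. That count was 25 against control replicates 1 to 5 alone and 41 against replicates 6 to 10 alone, where Ifi27 was called lower.

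Against fasted S662D mice, 5 effector genes were lower in the labelled knockouts. They were Oasl2, Parp14, Ifi44, Bst2 and Isg15, the last encoding a ubiquitin-like modifier. Of all genes 7.34% were called in this comparison and 4.72% were called lower, and no member was called higher. The fasted S662D libraries are the same as those compared with fasted controls, and the labelled knockouts are those compared with fasted controls, so these comparisons are not independent.

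Oasl2 was at 3.81, 2.89, 3.15, 3.51 and 4.40 CPM in the labelled knockouts, all below the S662D mice (5.08 to 7.68 CPM), a difference of -0.84 ± 0.17 SE on the log2 scale (adjusted p = 0.00225). Parp14 (chr16:35832874-35871544) was at 2.25, 1.80, 1.79, 2.05 and 2.44 CPM against 3.18, 2.59, 3.21, 4.30 and 3.44 CPM, with no overlap and a difference of -0.69 ± 0.17 SE (log2, adjusted p = 0.0113). Ifi44 (chr3:151730922-151749960), with 1 to 8 counts per labelled knockout library, was at 0.161, 0.189, 0.326, 0.315 and 0.054 CPM against 0.610, 0.425, 0.624, 0.614 and 0.948 CPM. These did not overlap either, and differed by -1.58 ± 0.41 SE (log2, adjusted p = 0.014). Bst2 (chr8:71534255-71537456), which tethers budding virions, was at 1.82, 1.51, 1.74, 1.46 and 2.12 CPM against 3.86, 2.01, 2.41, 3.26 and 3.29 CPM. The highest labelled knockout lay just above the lowest S662D library, and Bst2 differed by -0.79 ± 0.22 SE (log2, adjusted p = 0.0218). That call was lost in 7 of 20 alternatives, among them leaving out labelled knockout replicate 2 or 4 or S662D replicate 1 or 4. Isg15 (chr4:156199424-156200818) was at 0.965, 0.947, 0.977, 0.631 and 1.47 CPM against 1.93, 1.59, 1.56, 1.28 and 1.78 CPM. Its groups overlapped through labelled knockout replicate 5, and its call (-0.73 ± 0.23 SE, adjusted p = 0.0458) was lost in 16 of 19 alternatives, including 9 of 10 fits without 1 library. With S662D replicates 1 and 5 alone 0 of these 5 calls were made, and with S662D replicates 2, 3 and 4 alone 2 members were called.

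Members of 4 roles had lower values in the labelled knockouts than in S662D at an unadjusted p below 0.05. They were 19 of 44 members, all lower, of which 13 were effectors, 2 guanylate-binding protein genes, 1 a transcription factor (Irf7) and 3 antigen presentation genes (H2-K1, H2-D1 and Tap1), against 22.4% of all genes in either direction and 12.4% lower. Of the members, 36 were below 0 with a median of -0.31, against 48.5% and 0.01 over all genes. Groups did not overlap for 6 members, Oasl2, Usp18, Ifi27, Ifi44, Parp14 and Gbp3, all lower, against 4.92% of all genes and 2.75% lower. The 3 RNA sensor genes and B2m (0.02 ± 0.06 SE) were not called. Endothelial marker sums were 162 to 185 CPM in the labelled knockouts and 175 to 234 CPM in fasted S662D mice, with 4 of 6 markers called lower, and microglial sums were 201 to 234 and 208 to 254 CPM. Of 5 pericyte and smooth muscle markers 1 was called lower, and of the 8 hypothalamic markers 2 were called higher (median log2 fold change 0.23). The part of these cells in the lower effectors was not tested.

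**Figure D5:**
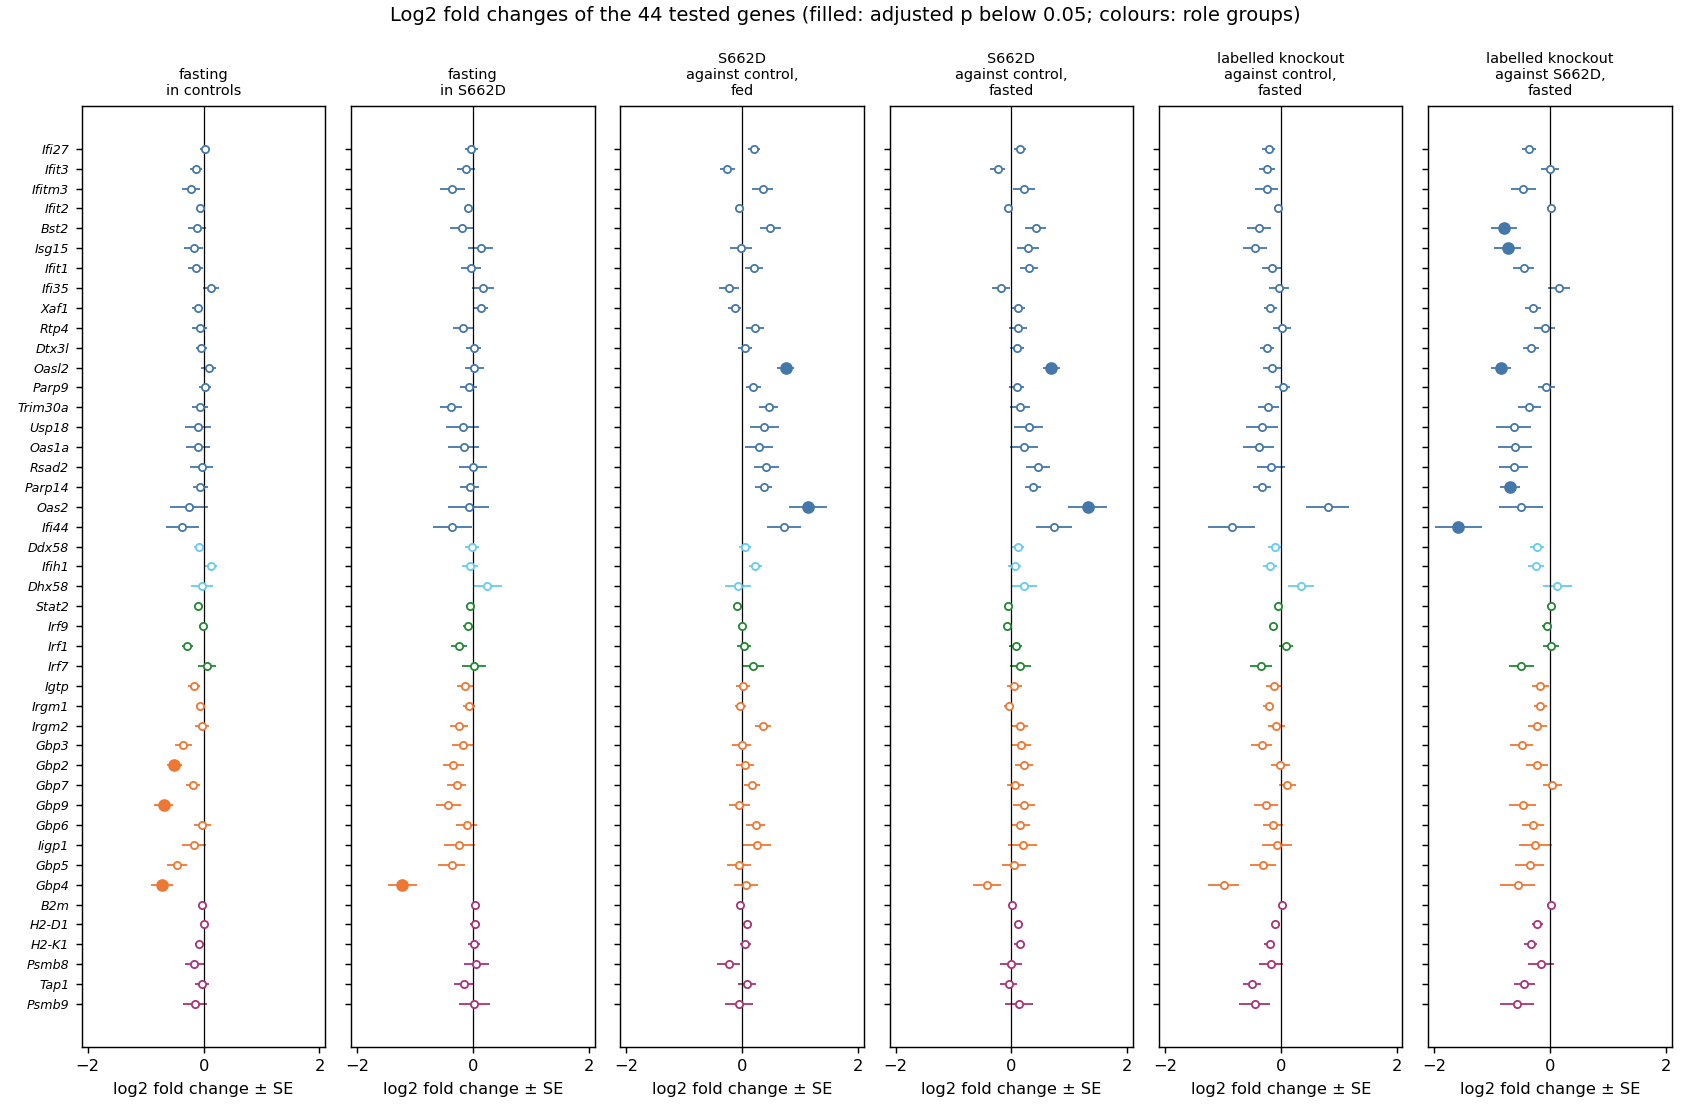
Log2 fold changes of the tested members, grouped by role, in the comparisons named on the panels; filled points are called at adjusted p below 0.05. Gbp4 is the lowest member in both fasting comparisons (-0.72 and -1.22), and Oas2 the highest in both comparisons of S662D with controls (1.14 and 1.31).

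Of the other genes of the pathway, interferon ligands were at the detection limit: of 9 ligand genes 0 passed the filter, no library held more than 3 counts of any, and Ifna1, Ifna4 and Ifnl2 had 0 counts in all libraries. Of 79 tested genes in the lists of receptors and signalling, sensing, other interferon-stimulated genes and other antigen presentation genes, 3 were called in fasted against fed controls, where 3.88% of all genes were. Socs3, an inhibitor of cytokine signalling, was lower (-0.49 ± 0.13 SE, adjusted p = 0.0229), as was the RNA receptor gene Tlr3 (-0.22 ± 0.07 SE, adjusted p = 0.0446). The gene of another RNA receptor, Tlr7, was higher, at 1.27, 1.95 and 2.52 CPM in fed controls and 1.61, 3.12 and 4.63 CPM in fasted controls (0.71 ± 0.16 SE on the log2 scale, adjusted p = 0.00301). In fasted against fed S662D mice the receptor gene Ifnar1 was called lower (-0.17 ± 0.05 SE, adjusted p = 0.0459), and it was the only one.

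Between genotypes, Lgals3bp was the gene of these lists called most often. It encodes a secreted glycoprotein induced by interferons, and was higher in S662D mice than in controls in the fed state (0.40 ± 0.09 SE, adjusted p = 0.00996) and in the fasted state (0.38 ± 0.09 SE, adjusted p = 0.0116). In fasted mice its S662D libraries (24.2 to 27.1 CPM) lay just above all control libraries (13.9 to 24.1 CPM), as for 0.304% of all genes. Calls of single genes of these lists were not followed within the control library ranges. Against control replicates 6 to 10 alone, 33 of all genes were called in fed mice and 48 in fasted mice. The chaperone gene Calr was also called higher in fasted S662D mice (0.18 ± 0.05 SE, adjusted p = 0.034). Labelled knockouts had lower levels than fasted S662D mice of 6 of the 79 genes and higher levels of 0, in a comparison that called 7.34% of all genes and 4.72% lower. These were Lgals3bp (-0.40), Socs1 (-0.73), the ubiquitin ligase gene Trim25 (-0.52), the peptide-loading genes Tap2 (-0.46) and Tapbp (-0.27), and the MHC gene H2-Q6 (-0.84), and the last 3 are uncertain by overlap or shared words. Against fasted controls, 0 of the 79 genes were called in the labelled knockouts.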

How the data were processed

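Hypothalamic polyA RNA of 35 mice was sequenced as paired reads of 150 bases, per the labels' protocols. The authors deposited raw counts per gene and library; per the file headers, featureCounts 2.0.1 summed fragments by gene name over GENCODE exons, counting each alignment of a multi-mapping read, with no strand option. STAR 2.7.10b, Subread and build mm10 are named in the submitters' processing notes. A gene with a near-identical copy is therefore counted too high, and reads of the 2 strands are not separated. Whether fragments over exons of 2 genes were counted or dropped is not stated here. Trex1, with 100% of its exon bases overlapped by another gene, had 0 counts in all libraries.

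Groups came from the labels. Genes were kept with filterByExpr (minimum count 10), scaled with TMM and fitted in 1 edgeR model (4.0.16, R 4.3.3, glmQLFit with robust estimation, glmQLFTest) with a mean per group over all 35 libraries. The 7 comparisons were adjusted with Benjamini-Hochberg over 18063 genes, and adjusted p below 0.05 is a call. SEs were derived from the F statistic. CPM uses TMM-scaled library sizes. The pipeline was tested on simulated counts. DESeq2 1.42.0, other scalings, filters and library subsets were alternatives. No library was left out and no 2 held identical values.

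The 46 members and all lists were chosen with earlier results of these data known. Genes with full values were those called in any comparison and, in each role, the most abundant per length and the one with the lowest p for fasting in controls. Counting error alone limits a gene with few counts. Replicate numbers were not taken to pair mice. The result of 1 gene of the pathway lists is not reported here.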

Additional observations from a re-analysis of the deposited data

Results flagged for a closer look

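In 16 of 225 combinations of gene and group (Per2 and the 44 tested members in 5 groups), 1 library lay apart from the others by Dixon's criterion, a gap to its neighbour that is large for the range of the group. Chance alone flags about 1 group in 20. None of these libraries was left out.

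Fasted controls held 7 of them. Replicate 6 was high for Stat2 (25.8 CPM, next 22.8), Gbp3 (5.51, next 3.70) and Iigp1 (1.96, next 1.24), replicate 7 was high for Oasl2 (6.67, next 4.36), replicate 5 was low for Parp9 (1.69, next 2.48) and Dhx58 (0.316, next 1.11), and replicate 4 was low for Gbp5 (0.777, next 1.45). In fed controls, replicate 9 was high for Per2 (32.6 CPM, next 29.4), replicate 2 was high for Ifih1 (5.04, next 4.21) and replicate 1 was low for Irgm2 (1.73, next 3.42).

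Among labelled knockouts, replicate 1 was high for Ifit3 (13.6 CPM, next 11.2) and low for Gbp6 (1.50, next 2.12), and replicate 3 was high for Irf1 (5.38, next 4.24). Among S662D mice, fed replicate 1 was high for Oas1a (1.32 CPM, next 0.773), fed replicate 4 was low for Psmb8 (1.00, next 1.88) and fasted replicate 1 was high for Ifitm3 (6.81, next 4.77).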

How the results depend on the processing

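Counts of members called are given here as set against 3 for fasting in controls, 1 for fasting in S662D, 0 for the interaction, 2 for S662D against control in fed and 2 in fasted mice, 0 between labelled knockouts and controls and 5 between labelled knockouts and S662D. With control replicates 1 to 5 alone, 5 members were called for fasting (Gbp4, Gbp9, Gbp3, Ifitm3 and H2-D1), 3 for S662D in fed and 7 in fasted mice. With control replicates 6 to 10 alone these were 0, 0 and 0, and 1 (Ifi27) for the labelled knockout against control. With S662D replicates 1 and 5 alone, 0 members were called in fasting of S662D, 0 and 0 against controls and 0 for the labelled knockout. With S662D replicates 2, 3 and 4 alone, 4 were called in fed mice, 3 in fasted mice (2 higher and 1 lower) and 2 for the labelled knockout. With the additional digit as a term the counts were 1 in fed mice, 0 in fasted mice and 1 for the labelled knockout. A minimum mean of 1 CPM, which drops Oas2, and DESeq2, which gave Oas2 no adjusted p, each gave 1 in fed and 1 in fasted mice. The other scalings, filters and sample sets gave counts within 1.5 times of the above. H2-D1 changed direction for fasting, from 0.00 to -0.23 (adjusted p = 0.0142) with control replicates 1 to 5; the cause was not tested.

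Leaving out 1 library at a time gave 3 to 4 members for fasting in controls, 1 to 1 in S662D, 0 to 0 for the interaction, 1 to 3 for S662D in fed and 1 to 3 in fasted mice, 0 to 0 between labelled knockouts and controls and 2 to 5 between labelled knockouts and S662D.

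The labels do not say whether replicate numbers pair the mice. Same-numbered fed and fasted controls had correlations of deviations from -0.19 to 0.06 over 10 pairs, and S662D mice from -0.11 to 0.16 over 5 pairs. Such correlations cannot show whether mice were matched. With the replicate block the counts were 3, 1, 0, 3, 2, 0 and 4 in the order above. Depth limits the rare members most: Oas2 and Ifi44 had as few as 2 and 1 counts in a library. Over all genes, calls across these alternatives ranged from 304 to 1315 for fasting in controls (701 as reported), 7 to 683 for fasting in S662D (476), 0 to 486 for the interaction (0), 16 to 3106 for S662D in fed mice (847), 20 to 3148 in fasted mice (1007), 2 to 99 between labelled knockouts and controls (5) and 26 to 2986 between labelled knockouts and S662D (1325), with each extreme other than the lowest interaction count in a fit on some of the libraries or with the digit as a term.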
